A study of Caenorhabditis elegans with 8 samples.

Results

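The caenacins are a family of small secreted peptides of Caenorhabditis elegans, encoded by cnc genes. Messenger RNA was measured for the genes named cnc-1 to cnc-7, cnc-10 and cnc-11, 9 genes chosen by name and not by their values. Of these 9, 4 were listed in the embryo table among its 13692 genes (cnc-3, cnc-4, cnc-10 and cnc-11). The L1 table, with 16249 genes, listed these 4 and also cnc-2, cnc-6 and cnc-7, which makes 7. Cnc-1 and cnc-5 were listed in neither table and were not analysed here. In each table, 10 counts or more were reached in 2 libraries or more by every listed gene, the listed members included.

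Whole-animal RNA came from 4 groups of 2 libraries each, all grown at 20 °C: mixed-stage embryos of the wild-type strain N2, mixed-stage embryos of the strain FAS43, and larvae of the first stage (L1) of each strain. FAS43 carries uge44, an allele of both his-69 and his-70, together with tm2066 in his-72, uge18 in his-74 and ok2289 in his-71, so that every gene of the replacement histone H3.3 is mutated. No agent was applied. No label tells if the 2 libraries of a group were grown as separate cultures. P-values therefore reflect only how far these libraries differ, and that spread may be technical.

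Caenacins, several of them made in the epidermis, are antimicrobial peptides and belong to the innate defence of a worm whose epidermis meets fungi and wounds directly. They are related to the glycine-rich peptides of the nlp-29 group. In the epidermis of adult worms infected with a fungus, cnc-2 is induced through a TGF-beta route, in which the ligand DBL-1 comes from neurons and acts on the receptor SMA-6 and the Smad protein SMA-3, while nlp-29 is induced through a p38 MAP kinase cascade with the adaptor TIR-1, the kinase PMK-1, the transporter-like protein SNF-12 and the STAT-like factor STA-2.

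Libraries held 17408914 to 30127179 counts. The strain labels were checked on the H3.3 genes: in embryos, his-72 fell from 59440 and 25296 counts (N2) to 29 and 32 (FAS43), and in L1 his-71 fell from 4595 and 4020 counts to 6 and 6. The stage labels were checked on early embryo genes, of which 6 of 8 were listed in embryos (pes-10, end-1, end-3, tbx-37, tbx-38 and sdz-1, not med-1 or med-2). All 6 were lower in L1 than in embryos in both strains (edgeR, adjusted p under 0.05). The embryo libraries stood apart in a way that crossed the strains. The summed level of 9 germline and maternal genes was 2217 CPM (counts scaled to a common library size) in N2 replicate 1 and 2370 in FAS43 replicate 2, against 1162 in N2 replicate 2 and 843 in FAS43 replicate 1. The sum of 6 body muscle genes lay the other way, at 687 and 659 CPM in the first pair and 2042 and 1445 CPM in the second. Strain differences of the caenacin genes in embryos are therefore given with and without single libraries. Those of the other gene lists are given from all libraries only.

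Most of the family lies together. Cnc-11, cnc-1, cnc-5, cnc-4, cnc-3 and cnc-2 stand in this order on chromosome V from 1442342 to 1450183 (WBcel235), 6 genes in 7842 bases with 0 other annotated genes between them. Cnc-1 (1444044 to 1444280) and cnc-2 (1449665 to 1450183) are on the minus strand. The plus strand carries cnc-11 (1442342 to 1442917), cnc-5 (1445381 to 1445832), cnc-4 (1447195 to 1447707) and cnc-3 (1448004 to 1448792). Cnc-10 lies on V from 11183225 to 11183643, cnc-7 on V from 20394073 to 20394735 and cnc-6 on III from 1763522 to 1764902, all on the plus strand. No member overlaps another annotated gene on either strand. Coding lengths run from 153 bases in cnc-11 to 294 bases in cnc-6, and annotated exons from 189 bases in cnc-1 to 525 bases in cnc-11.

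**Figure D1:**
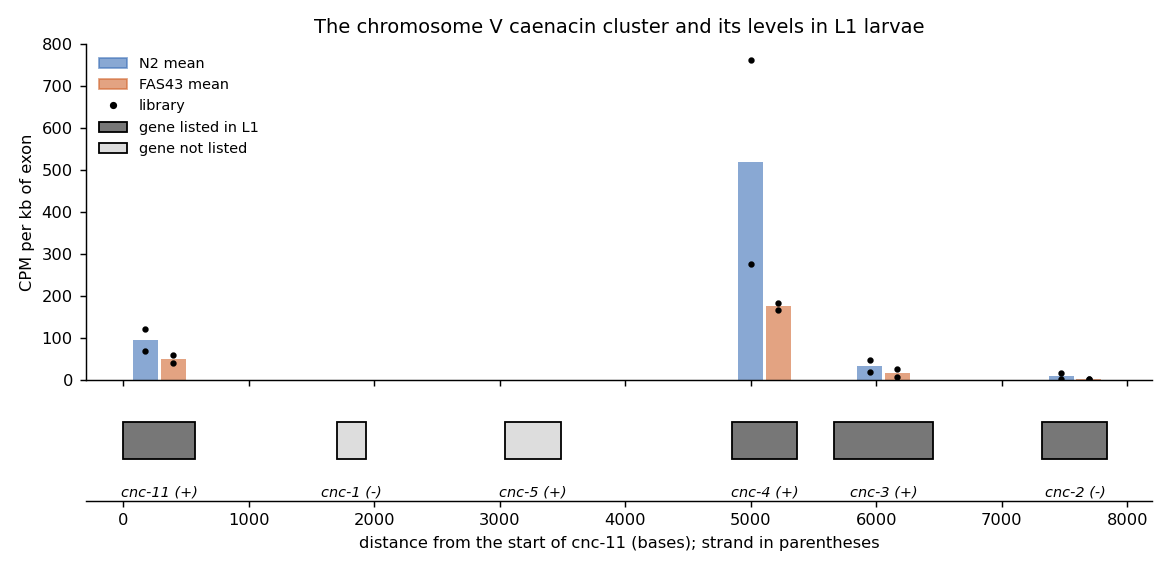
The upper panel plots CPM per kb of exon in L1 for the cluster genes (bars, mean of 2 libraries; points, single libraries; N2 and FAS43 side by side), and the lower panel maps the 6 genes by their distance in bases from the start of cnc-11. Cnc-4 stands above its neighbours in both strains, and cnc-1 and cnc-5, between cnc-11 and cnc-4, were not listed.

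The levels of the members were first set side by side, per length of annotated exon, since genes differ in length. In N2 L1 larvae cnc-4 was the most abundant, at 277 and 763 CPM per kb of exon in the 2 libraries. Cnc-10 followed with 113.4 and 162 CPM per kb, and cnc-11 with 70.4 and 122 CPM per kb. The ranges of cnc-10 and cnc-11 overlapped, so their order is not settled. Cnc-6 had 53.6 and 67.0 CPM per kb and cnc-3 had 20.3 and 49.4 CPM per kb. Cnc-2 had 3.72 and 17.05 CPM per kb and cnc-7 had 7.51 and 8.45 CPM per kb, with overlapping ranges. The other neighbours in this order did not overlap. In FAS43 L1 larvae the order was the same except that cnc-7, at a mean of 8.90 CPM per kb, stood above cnc-2, at 3.41 CPM per kb. There the ranges of cnc-11 and cnc-6 overlapped, as did those of cnc-3 and cnc-7. Within the summed CPM of the 7 genes, cnc-4 alone took between 40.9% and 64.1% in the 4 L1 libraries.

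Embryos had another leading member. Cnc-10 was highest in both strains, at 103.0 and 55.9 CPM per kb in N2 and 119.8 and 94.5 CPM per kb in FAS43. Cnc-4 had 3.34 and 19.2 CPM per kb in N2 and 68.4 and 12.9 CPM per kb in FAS43, overlapping with cnc-3 at 4.03 and 13.8 and at 19.9 and 6.58 CPM per kb. Cnc-11 was the lowest in both strains, with 0.213 and 0.761 CPM per kb in N2 and 3.50 and 0.532 CPM per kb in FAS43. Cnc-10 took between 52.4% and 91.9% of the summed CPM of these 4 genes in the embryo libraries.

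**Figure D2:**
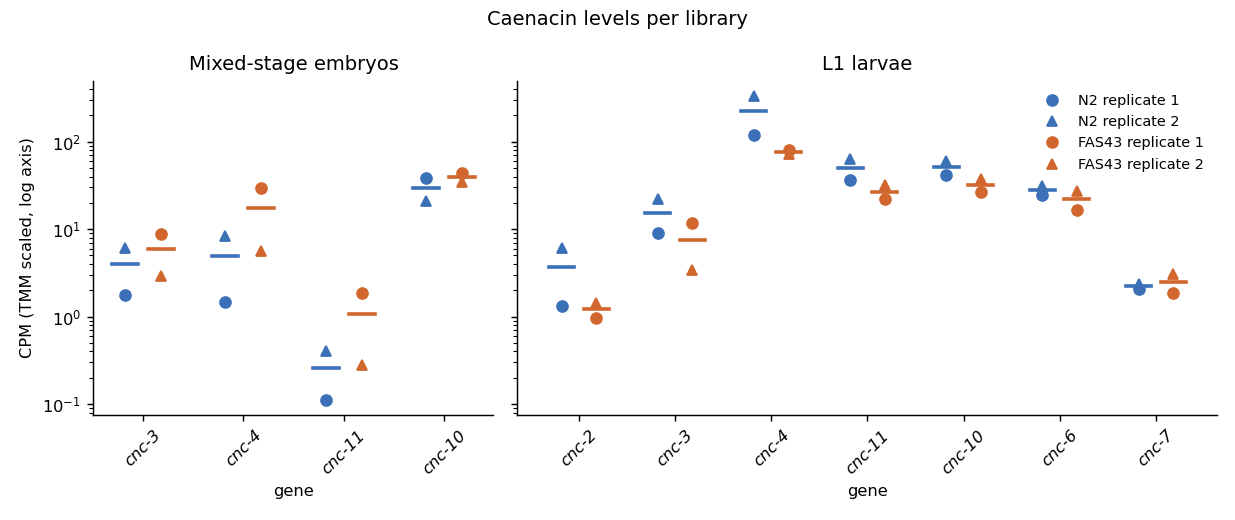
Each point is 1 library and each line the mean of 2 libraries, in CPM on a log axis, for the listed caenacin genes in embryos (left) and L1 larvae (right). In embryos the strains overlap for all 4 genes, while in L1 the FAS43 libraries lie below the N2 libraries for cnc-4, cnc-10 and cnc-11.

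L1 larvae were compared with embryos of the same strain in a fit of all 8 libraries over the 13335 genes listed in both tables. The stages were deposited as separate tables, so these levels assume that both were counted alike. The 4 genes found in both tables are cnc-3, cnc-4, cnc-10 and cnc-11. In N2, cnc-11 and cnc-4 rose and 0 members fell. Among all tested genes, 22.6% were called higher and 16.2% lower in this comparison, 38.8% either way, at an adjusted p under 0.05 (edgeR quasi-likelihood test, Benjamini-Hochberg). At an unadjusted p under 0.05 there were 3 of the 4 members, against 49.1% of all genes.

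Cnc-11 had 3 and 10 counts in the N2 embryo libraries and 1150 and 1199 counts in the N2 L1 libraries. That is 0.232 ± 0.175 CPM against 52.9 ± 20.5 CPM (SD, n = 2), with a log2 fold change of 7.80 (standard error 1.06, adjusted p = 0.000181 with edgeR). Cnc-4 rose from 39 and 209 counts to 3747 and 6212, or from 1.41 and 7.43 CPM to 125.1 and 349 CPM. Its log2 fold change was 5.74 (standard error 0.956, adjusted p = 0.000488 with edgeR). Both calls were kept whichever library was left out, with log2 fold changes from 7.20 to 8.86 for cnc-11 and from 4.82 to 7.39 for cnc-4.

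The cluster neighbour cnc-3 had 1.74 and 5.44 CPM in N2 embryos and 9.35 and 23.05 CPM in N2 L1. The stages did not overlap, but its log2 fold change of 2.17 (SE 0.880) did not pass the threshold (edgeR adjusted p = 0.0579), and it was called with DESeq2 (adjusted p = 0.0225). Without N2 embryo replicate 1 or 2 the log2 fold change of cnc-3 was 1.57 or 3.21, and without N2 L1 replicate 1 or 2 it was 2.68 or 1.38. Leaving out a FAS43 library, which is not part of this contrast, left it at 2.17 to 2.18. Cnc-3 lay near the threshold, and whether it was called changed with the library left out. With the replicate block its log2 fold change was 2.16 and it was not called (edgeR adjusted p = 0.165). Cnc-10, outside the cluster, had 37.1 and 18.4 CPM in N2 embryos and 43.7 and 63.3 CPM in N2 L1. Its log2 fold change was 0.95 (standard error 0.585, adjusted p = 0.205 with edgeR), which was not called. The L1 libraries lay above the embryo libraries for 4 of 4 members in N2, a pattern held by 37.3% of all tested genes, while 35.6% held the opposite.

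In FAS43, cnc-11 rose and 0 members fell, against 15.8% of all genes called higher and 9.66% lower, 25.5% either way. At an unadjusted p under 0.05 there were 2 of the 4 members, against 39.9% of all genes. Cnc-11 had 39 and 7 counts in FAS43 embryos and 584 and 688 in FAS43 L1, that is 2.10 and 0.255 CPM against 21.2 and 34.8 CPM. Its log2 fold change was 4.60 (standard error 0.907, adjusted p = 0.00329 with edgeR). With single libraries left out it stayed called and ranged from 3.73, without FAS43 embryo replicate 2 (edgeR adjusted p = 0.0479), to 6.75, without FAS43 embryo replicate 1. Cnc-4 went from 34.01 and 5.15 CPM to 77.7 and 79.1 CPM, with a log2 fold change of 2.00 (standard error 0.809, adjusted p = 0.0741 with edgeR). Without FAS43 embryo replicate 1, the library with 34.01 CPM, the log2 fold change of cnc-4 was 3.93 and it was called (edgeR adjusted p = 0.0199). It was also called without N2 embryo replicate 1 or 2 or FAS43 L1 replicate 1 (edgeR adjusted p from 0.0451 to 0.0490), with log2 fold changes of 1.99 to 2.00. Without FAS43 embryo replicate 2 the log2 fold change of cnc-4 fell to 1.20 (edgeR adjusted p = 0.402).

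Cnc-3 and cnc-10 showed no call in FAS43. Cnc-3 had 10.08 and 2.66 CPM in embryos and 11.3 and 3.74 CPM in L1, so the stages overlapped, and its log2 fold change was 0.25 (standard error 0.846, adjusted p = 0.849 with edgeR). Cnc-10 had 50.8 and 32.04 CPM in embryos and 25.8 and 40.9 CPM in L1, with a log2 fold change of -0.31 (standard error 0.581, adjusted p = 0.718 with edgeR). The stages did not overlap for 2 of 4 members in FAS43, both higher in L1, against 36.5% of all tested genes that were higher and 34.3% that were lower.

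**Figure D3:**
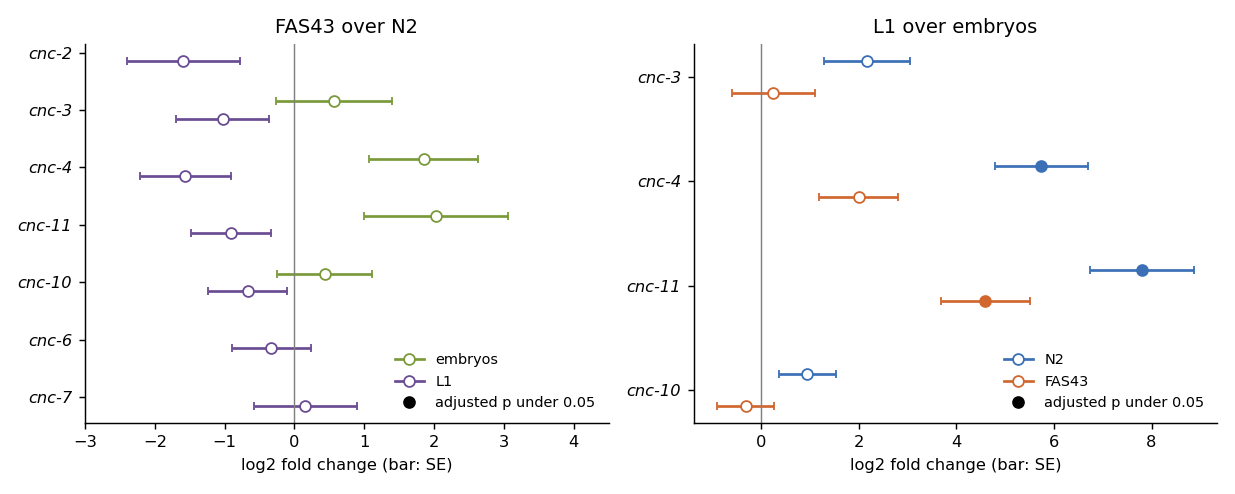
Log2 fold changes (points) with their SE (bars) for FAS43 over N2 in each stage (left) and for L1 over embryos in each strain (right), with filled points where the adjusted p was under 0.05. The 3 filled points are cnc-4 and cnc-11 in N2 and cnc-11 in FAS43, all on the L1 over embryo side.

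FAS43 was compared with N2 in embryos to see whether loss of H3.3 changed the caenacins. None of the 4 listed members was called with edgeR or with DESeq2, where 0.022% of all 13617 tested genes were called with edgeR, 0.00734% higher and 0.0147% lower. All 4 log2 fold changes were positive, with a median of 1.21, against a median of -0.08 and 40.1% positive over all genes. At an unadjusted p under 0.05 there were 2 of the 4, cnc-4 and cnc-11, against 0.698% of all genes. These p-values rest largely on a spread shared over genes, not on the gaps between the libraries of cnc-4 or cnc-11 alone. The strains overlapped for all 4 members, while 3.49% of all genes were higher and 7.46% lower in FAS43 without overlap.

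Cnc-4 had 1.45 and 8.35 CPM in N2 embryos and 29.7 and 5.63 CPM in FAS43 embryos. The single high library was FAS43 replicate 1, while FAS43 replicate 2 lay between the N2 libraries. The log2 fold change was 1.85 (standard error 0.781, adjusted p = 0.9999 with edgeR), and it was 0.20 without FAS43 replicate 1, 1.08 without N2 replicate 1, 2.76 without FAS43 replicate 2 and 3.81 without N2 replicate 2 (edgeR adjusted p = 0.0507). The authors' deposited table marked cnc-4 as significant in embryos, with a log2 fold change of 1.85, a p-value of 0.0179 and a false discovery rate of 0.9999. In all, 84 of the 13692 genes listed in embryos were so marked.

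Cnc-11 had 0.112 and 0.400 CPM in N2 and 1.84 and 0.279 CPM in FAS43, with a log2 fold change of 2.03 (standard error 1.03, adjusted p = 0.9999 with edgeR) that was 0.13 without FAS43 replicate 1, 1.38 without N2 replicate 1, 2.99 without FAS43 replicate 2 and 3.38 without N2 replicate 2. Cnc-3 had 1.79 and 6.11 CPM in N2 and 8.82 and 2.91 CPM in FAS43. Its log2 fold change was 0.57 (standard error 0.834, adjusted p = 0.9999 with edgeR) and turned to -0.44 without FAS43 replicate 1 and -0.06 without N2 replicate 1, while it was 1.32 without FAS43 replicate 2 and 1.92 without N2 replicate 2. For these 3 cluster genes the libraries stood in 1 order, from N2 replicate 1 through FAS43 replicate 2 and N2 replicate 2 up to FAS43 replicate 1. Cnc-10 did not follow that order, with 38.2 and 20.7 CPM in N2 and 44.5 and 35.1 CPM in FAS43, and its log2 fold change was 0.43 (standard error 0.679, adjusted p = 0.9999 with edgeR), ranging from 0.25 without FAS43 replicate 1 to 0.94 without N2 replicate 1.

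The gap between the libraries of 1 strain was wide for cnc-4. With 0.5 CPM added, cnc-4 differed by 2.30 on the log2 scale between the FAS43 embryo libraries, more than 99.1% of tested genes, and by 2.18 between the N2 embryo libraries, more than 97.8%. The median gap over all genes was 0.56 in FAS43 and 0.71 in N2. For cnc-3 the gap was 1.45 in FAS43 and 1.53 in N2, and for cnc-11 it was 1.59 in FAS43 and 0.56 in N2. The edgeR standard error of the strain difference was still smaller for cnc-4 (0.781) than for cnc-3 (0.834). Both N2 levels of cnc-11 (0.112 and 0.400 CPM) and that of FAS43 replicate 2 (0.279 CPM) lay below the 0.5 CPM added, which narrows its gaps. That 40.3% of genes had a smaller gap than cnc-11 in N2 therefore does not show close replicates. For cnc-10 the gap was 0.34 in FAS43 and 0.87 in N2. The 2 libraries with more cnc-3, cnc-4 and cnc-11 were those with more body muscle RNA and less germline and maternal RNA. These were N2 replicate 2 and FAS43 replicate 1, given first here, against N2 replicate 1 and FAS43 replicate 2. The sum of 7 intestinal genes was higher (551.7 and 375.0 against 219.9 and 263.1 CPM). The sum of 7 neuronal genes was lower (306.8 and 375.2 against 482.6 and 389.8 CPM), as was the early embryo sum. The sum of 6 late embryo genes did not separate the pairs (5588.7 and 3978.5 against 4083.5 and 2958.3 CPM). All 6 body muscle and all 9 germline and maternal genes were listed, with 0 of them at 0 counts in any library. The sum of 10 listed epidermal genes of 12 was 2364 and 3640 CPM in N2 and 2317 and 2233 CPM in FAS43, and its order differed from that of the cluster genes. The part of embryo age or tissue makeup in the caenacin values was not tested, and in whole animals fewer cells of a type and less RNA per cell cannot be told apart.

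**Figure D4:**
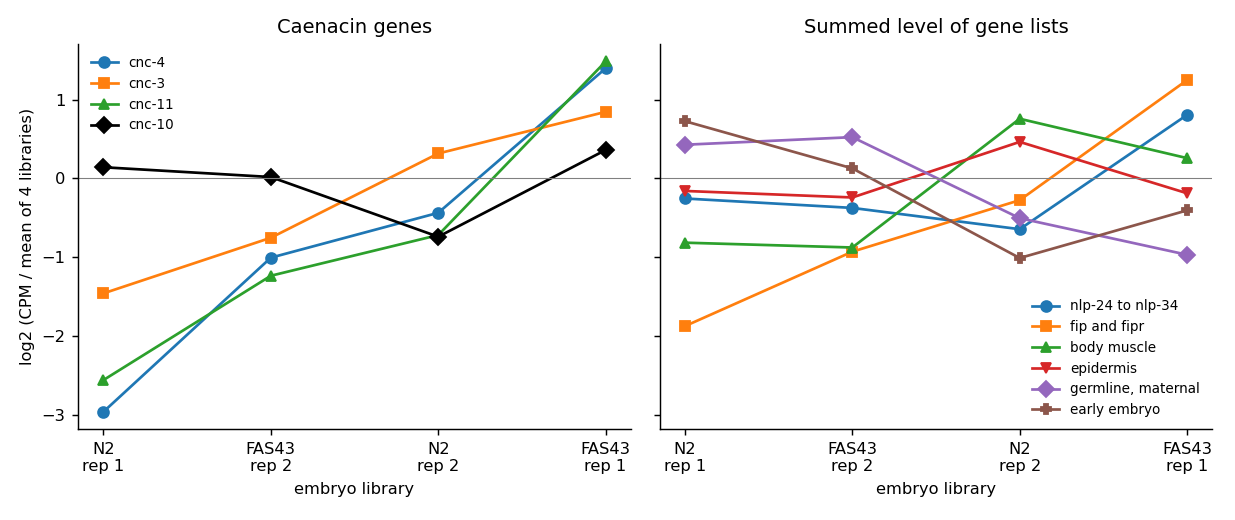
Each point is 1 embryo library, as the log2 ratio of its CPM to the mean of the 4 libraries, for 4 caenacin genes (left) and for the summed CPM of gene lists (right), with the libraries ordered by their cnc-4 level and lines joining points of 1 gene or list. Cnc-3, cnc-4 and cnc-11 rise along this order while cnc-10 does not, and the germline and early embryo sums are lower in N2 replicate 2 and FAS43 replicate 1 than in the other two.

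In L1 larvae none of the 7 listed members was called between strains with edgeR or with DESeq2, and 0.0186% of all 16099 tested genes were called with edgeR, 0.00621% higher and 0.0124% lower. The log2 fold changes were negative for 6 of the 7, with a median of -0.90, against a median of 0.00 and 49.7% positive over all genes. One member, cnc-4, had an unadjusted p under 0.05, against 3.37% of all genes. FAS43 lay below N2 without overlap for 3 of 7 members, cnc-4, cnc-10 and cnc-11, against 14.2% of all tested genes, and 0 of 7 lay above it, against 12.9%.

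Cnc-4 had 120.4 and 332 CPM in N2 L1 and 79.96 and 73.0 CPM in FAS43 L1. Both FAS43 libraries were below both N2 libraries, and N2 replicate 2 was far above the other three. The log2 fold change was -1.56 (standard error 0.654, adjusted p = 0.9996 with edgeR) and it was -0.65 without N2 replicate 2 and -2.19 without N2 replicate 1 (edgeR adjusted p = 0.277). The authors' deposited table marked cnc-4 in L1 as well, with a log2 fold change of -1.56, a p-value of 0.0232 and a false discovery rate of 0.9998, the other way from embryos. In all, 579 of the 16249 genes listed in L1 were so marked.

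Cnc-11 had 36.9 and 64.0 CPM in N2 and 21.9 and 32.1 CPM in FAS43, with a log2 fold change of -0.90 (standard error 0.571, adjusted p = 0.9996 with edgeR). Cnc-10 had 42.1 and 60.2 CPM in N2 and 26.6 and 37.7 CPM in FAS43, with a log2 fold change of -0.67 (standard error 0.565, adjusted p = 0.9996 with edgeR). With single libraries left out they ranged from -1.31 to -0.45 for cnc-11 and from -0.96 to -0.39 for cnc-10, lowest without N2 replicate 1 and nearest to 0 without N2 replicate 2.

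The remaining 4 members overlapped between strains. Cnc-2, the member known for its induction by DBL-1 signalling, had 1.32 and 6.03 CPM in N2 and 0.973 and 1.44 CPM in FAS43. Its log2 fold change of -1.59 (standard error 0.810, adjusted p = 0.9996 with edgeR) became -0.13 without N2 replicate 2 and -2.38 without N2 replicate 1. Cnc-3 had 8.99 and 21.9 CPM in N2 and 11.7 and 3.45 CPM in FAS43, with a log2 fold change of -1.02 (standard error 0.667, adjusted p = 0.9996 with edgeR) that was -0.25 without N2 replicate 2, -0.40 without FAS43 replicate 2 and -2.18 without FAS43 replicate 1. Cnc-6 had 24.8 and 30.97 CPM in N2 and 16.7 and 27.7 CPM in FAS43, a log2 difference of -0.33 (standard error 0.562, adjusted p = 0.9996 with edgeR). Cnc-7 had 2.09 and 2.35 CPM in N2 and 1.87 and 3.07 CPM in FAS43, a log2 difference of 0.16 (standard error 0.740, adjusted p = 0.9996 with edgeR).

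In L1, N2 replicate 2 had the highest level of cnc-2, cnc-3, cnc-4, cnc-6, cnc-10 and cnc-11 among the 4 libraries, and cnc-7 alone was highest in FAS43 replicate 2. Summed over the 7 genes, the L1 libraries held 237 and 517 CPM in N2 and 159.6 and 178 CPM in FAS43. The 9 germline and maternal genes were all listed in L1, 0 of them at 0 counts in a library, and their sum was 307 and 189 CPM in N2 and 1034 and 412 CPM in FAS43. The sum of 7 listed early embryo genes of 8, also with 0 at 0 counts, was 6.57 to 11.8 CPM in N2 and 13.8 to 42.4 CPM in FAS43. The sum of 11 listed epidermal genes of 12 was 937 and 1285 CPM in N2 and 1740 and 479 CPM in FAS43. The sum of 6 late embryo genes was 1129 and 608 CPM in N2 and 2114 and 233 CPM in FAS43. That of 7 intestinal genes was 2018 and 1632 CPM in N2 and 1226 and 3447 CPM in FAS43. For the epidermal, late embryo and intestinal sums, the FAS43 libraries lay on either side of both N2 libraries. The part of these differences in the caenacin values was not tested.

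The difference of the strain effect between stages was tested directly as an interaction. None of the 4 members in both tables was called (edgeR and DESeq2), and neither was any other gene, 0% of 13335. All 4 interaction values were negative, that is, the strain difference was more negative in L1 than in embryos, with a median log2 value of -2.56 against 0.02 over all genes. The interaction of cnc-4 was -3.74 (standard error 1.14, unadjusted p = 0.00413, adjusted p = 0.9986 with edgeR), and its unadjusted p ranked 12 among the genes tested. That of cnc-11 was -3.20 (standard error 1.20, unadjusted p = 0.0154, adjusted p = 0.9986 with edgeR). These were 2 of 4 members at an unadjusted p under 0.05, against 1.49% of all genes. The values for cnc-3 and cnc-10 were -1.92 (SE 1.21) and -1.26 (SE 0.823). Without FAS43 embryo replicate 1 the interaction of cnc-4 was -1.82 and that of cnc-11 was -1.05, while without N2 embryo replicate 2 they were -5.38 and -4.26. Neither was called in any of these fits. The interaction rests on the same libraries as the comparisons above and is not further evidence for them.

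One more caenacin gene, cnc-8 on chromosome X, lies outside the chosen names but was listed in both tables. Its embryo counts were 4 and 18 in N2 and 63 and 14 in FAS43, in the same library order as the cluster genes. Its L1 counts were 844 and 854 in N2 and 378 and 597 in FAS43. Between strains cnc-8 was not called in embryos (log2 fold change 2.01, standard error 0.979, unadjusted p = 0.0399, adjusted p = 0.9999 with edgeR). Nor was it called in L1 (-0.79, standard error 0.577, adjusted p = 0.9996 with edgeR). The authors marked cnc-8 as significant in embryos but not in L1. In the fit of all 8 libraries it was higher in L1 than in embryos in N2 (log2 fold change 6.58, standard error 1.06, adjusted p = 0.000406 with edgeR) and in FAS43 (3.50, standard error 0.909, adjusted p = 0.0123 with edgeR).

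The members differed from each other in their profiles over the 8 libraries. Likeness was measured as the root mean square (RMS) difference of log2 CPM, each gene centred on its own mean. Among the members in both tables, cnc-3 and cnc-10 were closest at 1.05 and cnc-4 and cnc-11 next at 1.08, while cnc-10 and cnc-11 were farthest apart at 3.06. The median RMS difference to all genes compared was 1.01 for cnc-10 and 1.44 for cnc-3, so these 2 were no closer than cnc-10 was to a typical gene, while for cnc-4 and cnc-11 it was 2.65 and 3.42. Cnc-8, from another chromosome, was nearer to cnc-11 (0.560) and to cnc-4 (0.622) than these 2 genes of the cluster were to each other. The 5 genes nearest to the mean profile of the 4 members, of 5553 genes with a symbol and a mean of at least 5 CPM, were lips-17 (RMS difference 0.141), zig-3 (0.237), oig-3 (0.305), tnc-2 (0.312) and swt-6 (0.314). The median over these genes was 1.91. With 8 libraries, 2 stages and stage differences as wide as these, many genes can lie close by.

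The related nlp peptides of the epidermis were described next, from nlp-24 to nlp-34. In N2, where 22.6% of all tested genes were called higher (15.8% in FAS43), 5 of 6 tested members rose from embryos to L1: nlp-24 by a log2 fold change of 5.29, nlp-34 by 5.25, nlp-29 by 4.89, nlp-33 by 4.71 and nlp-30 by 3.81 (edgeR adjusted p from 0.000231 to 0.00621). Nlp-31 was not called (0.48). In FAS43, 3 of 6 rose, nlp-34 by 3.33, nlp-33 by 2.33 and nlp-29 by 2.01, and nlp-24 (1.42), nlp-30 (0.65) and nlp-31 (-0.74) were not called.

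Between strains none of the nlp genes was called in either stage with edgeR, with 3 of 6 at an unadjusted p under 0.05 in embryos and 2 of 11 in L1, against 0.698% and 3.37% of all genes. In embryos all 6 log2 fold changes were positive, with a median of 1.54: nlp-24 at 1.79, nlp-29 at 1.75, nlp-33 at 1.55, nlp-30 at 1.54, nlp-34 at 1.02 and nlp-31 at 0.39. In L1 all 11 were negative, with a median of -0.69, from -1.77 for nlp-24 through -1.37 for nlp-25, -1.27 for nlp-30, -0.86 for nlp-29, -0.83 for nlp-26, -0.69 for nlp-34, -0.64 for nlp-31, -0.59 for nlp-32, -0.57 for nlp-33 and -0.53 for nlp-27 to -0.33 for nlp-28. Nlp-29 had 4.13 and 10.07 CPM in N2 embryos against 39.3 and 8.46 CPM in FAS43 embryos, so FAS43 replicate 1 was the high library here too. In L1 nlp-24 had 104.7 and 276 CPM in N2 against 44.2 and 67.0 CPM in FAS43, with N2 replicate 2 the highest, as for cnc-4.

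Other small defence peptides also differed between stages. Over all tested genes, 22.6% were called higher in L1 in N2 and 15.8% in FAS43. Among the fip and fipr genes, named for their induction by fungi, 8 of 8 tested rose from embryos to L1 in N2 and 5 of 8 in FAS43, with fipr-2 at log2 fold changes of 7.38 and 4.84, fip-2 at 6.20 and 5.03, fip-5 at 5.86 in N2 and fipr-21 at 3.83 in FAS43. Of the list of antibacterial factor-related (abf) and saposin-like (spp) peptides, the 13 genes in both tables were all spp genes, and 7 of them rose in each strain, led by spp-14 (7.98 and 7.38), spp-8 (6.94 and 7.03) and spp-1 (6.73 and 6.11). Between strains 0 genes of these lists were called in either stage with edgeR. At the unadjusted threshold of 0.05 there were 2 of 8 fip and fipr genes in embryos and 4 of 16 in L1. Over all genes the shares were 0.698% and 3.37%. No abf or spp gene reached that threshold in either stage. The embryo medians were 1.60 for 8 fip and fipr genes and 0.36 for 13 spp genes, with no abf gene listed in embryos. The L1 medians were -0.88 for 16 fip and fipr genes and -0.34 for 24 abf and spp genes.

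The genes of the DBL-1 route were all listed, 13 of 13. In N2, 7 rose from embryos to L1 and 0 fell, and in FAS43 also 7 rose and 0 fell, against 22.6% of all tested genes called higher and 16.2% lower in N2 and 15.8% and 9.66% in FAS43. The ligand gene dbl-1 had 2.85 ± 2.45 CPM in N2 embryos and 18.4 ± 8.56 CPM in N2 L1, and its log2 fold changes were 2.69 in N2 (edgeR adjusted p = 0.0163) and 3.05 in FAS43 (0.0157). The largest called changes were those of the Smad gene sma-2 (3.70 in N2, 3.77 in FAS43) and of sma-10 (3.35 and 4.16), which encodes a regulator of the pathway. In N2 they were followed by lon-1, a gene the pathway represses (3.24). The receptor genes sma-6 (1.17 and 1.12) and daf-4 (0.39 and 0.95) and the Smad gene sma-3 (0.90 and 0.78) were not called in either strain. Between strains 0 of 13 were called in embryos, where the median was -0.13, and 0 of 13 in L1, where it was 0.20 (edgeR), with 0 at an unadjusted p under 0.05 in either stage. For sma-3 the strain differences were -0.06 (SE 0.747) in embryos and -0.03 (SE 0.558) in L1.

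The genes of the p38 route to nlp-29 were also all listed, 16 of 16. From embryos to L1, 8 rose in N2 and 7 in FAS43, and 0 fell in either strain, where 22.6% and 15.8% of all tested genes were called higher. They were led by cebp-1, a bZIP transcription factor gene (3.79 in N2, 3.23 in FAS43), followed in N2 by sta-2 (2.88) and the G protein alpha subunit gene gpa-12 (2.58) and in FAS43 by the phospholipase C gene egl-8 (2.76) and snf-12 (2.76). Sta-2 was also called in FAS43 (2.32) and snf-12 in N2 (2.27). The adaptor gene tir-1 (0.51 and 0.52) and the p38 gene pmk-1 (-0.67 and -0.39) were not called. Between strains 0 of 16 were called in embryos (median -0.17) and 0 of 16 in L1 (median 0.21), nor was any at an unadjusted p under 0.05, with pmk-1 at -0.25 (SE 0.640) and 0.16 (SE 0.570) and sta-2 at 0.04 (SE 0.757) and -0.28 (SE 0.595) (edgeR).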

How the data were processed

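The members and the gene lists were chosen with earlier results of these data known, so nothing here was fixed blind to them. Trizol RNA, 1000 ng a sample, went into stranded mRNA libraries read over 50 bases, per the labels' protocols. The submitters' processing notes name the build WBcel235, TopHat2 2.0.13, HTSeq 0.6.1 and edgeR 3.10.5. What each did, and whether counting used strand, is not given in the sources used here. Each stage has 1 deposited table, which holds raw counts per gene. Per the file headers it also holds a normalized count signal per library (the raw count over 1 constant), and the authors' log2 fold change, log2 abundance and p-values. Only the raw counts were tested.

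Counts were fitted with edgeR 4.0.16 in R 4.3.3 (filterByExpr, TMM, quasi-likelihood F-test, Benjamini-Hochberg over all tested genes, called at an adjusted p under 0.05). Each stage was fitted alone for the strains, with 2 residual degrees of freedom for a gene taken alone. The quasi-likelihood test draws the spread of each gene toward that of all genes. Standard errors and p-values therefore rest largely on the shared spread and do not measure a gene's own spread alone. Stage contrasts and the interaction came from 1 fit of all 8 libraries over genes in both tables, so comparisons share libraries. Standard errors were taken as the size of a log2 fold change divided by the root of its F value. CPM use TMM effective library sizes of the fit they stand beside, so a gene's CPM differs between fits. In FAS43 embryo replicate 1, cnc-4 had 29.7 CPM in the embryo fit and 34.0 CPM in the fit of all 8 libraries. Its log2 strain difference in embryos was 1.85 in the embryo fit and 2.14 in that of all 8 libraries, and it was called in neither. Exon lengths and positions are from the Ensembl annotation of WBcel235. The procedure was also run on simulated counts with known changes and the same dispersion for every gene. These lack the wide gaps between libraries seen here, so that run does not measure what could be found in these data. DESeq2 1.42.0, RLE size factors, other filters, left-out libraries and replicate blocks were alternatives. Genes named are the members, the nlp list, 8 pathway genes, the most changed called genes of the peptide and pathway lists, at most 3 per list and strain, and the nearest profiles. Cell type markers are given as sums and counts. Cnc-8 was named after its values were seen. Same-numbered libraries of the strains deviated in opposite directions, with correlations across genes of -0.52 in embryos and -0.18 in L1, so the numbers were not taken to pair them. Peptide and promoter sequences were not used here.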

Additional observations from a re-analysis of the deposited data

How the results depend on the processing

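With 2 libraries a group, the strain comparisons could show only wide differences. Under all alternatives run, 0 caenacin genes were called between strains in either stage, and 0 for the interaction. From embryos to L1 in N2, 2 were called higher, and 2 to 3 when single libraries were left out. In FAS43 1 was called higher, against 2 with RLE size factors, 2 with DESeq2 and 1 to 2 with single libraries left out, since cnc-4 lay near the threshold (adjusted p = 0.0495 and 0.0481). With the replicate block, 0 caenacin genes were called between strains in each stage, and 2 in N2 and 1 in FAS43 between stages, so it changed no call; all-gene counts between stages were 1990 higher and 1276 lower in N2 against 3014 and 2157, and 850 and 485 in FAS43 against 2113 and 1288. A block with crossed replicate numbers was not planned and was added after the opposite deviations were seen in these same counts. It therefore takes up spread by its choice, and its calls are no support for a gene. With it, 16 genes in embryos were called higher and 2 lower, and 2 and 4 in L1, with 0 caenacins among them. Signs turned only when a library was left out. Between strains, cnc-3 in embryos ranged from -0.44 to 1.92 and cnc-7 in L1 from -0.24 to 0.46; between stages in FAS43, cnc-3 ranged from -0.80 to 1.502 and cnc-10 from -0.68 to 0.058. Cnc-11 in embryos could not be tested under the filter of 1 CPM in 2 libraries, under which the median of all genes moved from -0.08 to 0.10. Calls over all genes depended more on single libraries. Between stages in N2 they dropped to 1174 higher and 509 lower without N2 embryo replicate 1, 2103 and 1305 without N2 L1 replicate 1 and 1957 and 803 without N2 L1 replicate 2. In FAS43 they dropped to 1855 and 515 without FAS43 embryo replicate 1, to 237 and 204 without replicate 2 and to 719 and 17 without FAS43 L1 replicate 2, against 2712 and 2108 with DESeq2. Between strains, where 1 was higher and 2 lower in each stage, 21 were higher in embryos without N2 replicate 2, 5 lower without N2 replicate 1, and 3 higher and 19 lower in L1 without FAS43 replicate 1, against 2 and 4 with DESeq2.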
